A study of Drosophila melanogaster with 24 samples.

Results

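Chromosome 4 is the smallest chromosome of Drosophila melanogaster, and the peaks of 2 histone marks on it are described here. Every peak whose chromosome is 4 was taken from the 16 lists of peaks, each list apart. There were 1568 such peaks of 162547 in all, 1411 of them for H3R17me2 and 157 for H3K27me3. The chromosome is 1348.1 kb long in dm6 and has 80 of the 13945 protein-coding genes annotated on chromosomes 2, 3, 4 and X. Its covered share, the length under a peak as a percentage of its length, was compared with that of the large autosomal arms 2L, 2R, 3L and 3R as a whole.

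The marks were mapped by ChIP-seq, sequencing of chromatin pulled down with an antibody, in heads of male flies at ZT8, with 25 heads per sample. The groups were 40-day-old LKRSDHMB01942 mutant flies, 40-day-old w1118 control flies, 3-day-old LKRSDHMB01942 mutant flies and 3-day-old w1118 control flies, with 2 libraries for each mark in each group. LKRSDH encodes lysine ketoglutarate reductase/saccharopine dehydrogenase, an enzyme of lysine degradation, and the mutants were homozygous for MB01942, a transposon insertion. The libraries were made to learn how the marks relate to each other in young and old flies of both genotypes. The mutant is 1 allele and the control 1 stock, and the methods say that mutants were backcrossed to w1118 over several generations. A head holds brain, eye, muscle and fat, so more cells with a mark and more of the mark in each cell cannot be told apart either. The methods call the 2 libraries of a group biological replicates without saying whether they came from separate crosses, and the tests measure the spread between these libraries. A whole list held between 10627 and 17105 peaks for H3R17me2 and between 3575 and 6295 for H3K27me3, and the read depth of each library is not in the lists.

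The fourth chromosome, also called the dot chromosome, is rich in repeats and carries heterochromatin marks along most of its length, and yet most of its genes are expressed. H3K27me3, trimethylation of lysine 27 of histone H3, is set by Polycomb repressive complex 2 and spreads over genes for developmental regulators that a cell keeps silent. In flies the complex is brought in at Polycomb response elements, which often hold GAGAG, a site of GAGA factor, and GCCAT, the core of the site of Pho, whose gene is itself on chromosome 4. H3R17me2, dimethylation of arginine 17, is set by Art4, the fly counterpart of CARM1, and is known as a mark of active genes.

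The sequences below show the places on which the results turn, from the RefSeq copy of dm6, each 5′ to 3′ on the strand given, with none of them in an annotated exon. In capitals are GAGAG and GCCAT on either strand, thus also CTCTC and ATGGC. The first set is the 250 bases upstream of 4 of the 7 genes whose start was under H3K27me3 in all 8 lists, those that hold a match. The windows of fuss, Asator and dati, the other 3, hold 0 matches and are not printed.
zfh2, chr4:501560-501809, + strand: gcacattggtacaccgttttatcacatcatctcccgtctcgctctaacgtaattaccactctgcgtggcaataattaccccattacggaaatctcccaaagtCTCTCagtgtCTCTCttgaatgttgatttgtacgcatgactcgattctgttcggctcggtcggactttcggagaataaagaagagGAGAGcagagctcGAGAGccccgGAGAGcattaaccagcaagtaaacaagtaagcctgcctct
fd102C, chr4:844530-844779, - strand: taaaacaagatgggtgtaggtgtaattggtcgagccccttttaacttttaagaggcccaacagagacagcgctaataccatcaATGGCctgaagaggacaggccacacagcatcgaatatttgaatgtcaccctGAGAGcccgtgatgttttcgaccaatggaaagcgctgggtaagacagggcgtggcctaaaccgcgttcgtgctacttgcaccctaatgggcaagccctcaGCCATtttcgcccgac
toy, chr4:989475-989724, + strand: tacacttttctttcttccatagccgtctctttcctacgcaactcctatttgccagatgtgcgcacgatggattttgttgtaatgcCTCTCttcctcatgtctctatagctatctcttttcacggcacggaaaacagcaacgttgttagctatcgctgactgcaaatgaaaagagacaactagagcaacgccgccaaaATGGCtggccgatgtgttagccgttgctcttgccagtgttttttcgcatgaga
sv, chr4:1088548-1088797, + strand: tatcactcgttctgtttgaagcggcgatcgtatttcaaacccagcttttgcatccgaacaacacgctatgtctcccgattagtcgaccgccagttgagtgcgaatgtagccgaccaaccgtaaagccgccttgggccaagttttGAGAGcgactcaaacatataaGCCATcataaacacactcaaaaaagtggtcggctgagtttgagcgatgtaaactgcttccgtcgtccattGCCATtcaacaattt
The next pair is upstream of ey, where H3K27me3 began only inside the gene, and of RpS3A, a ribosomal protein gene with no H3K27me3, and both windows were under H3K27me3 in 0 lists.
ey, chr4:697439-697688, + strand: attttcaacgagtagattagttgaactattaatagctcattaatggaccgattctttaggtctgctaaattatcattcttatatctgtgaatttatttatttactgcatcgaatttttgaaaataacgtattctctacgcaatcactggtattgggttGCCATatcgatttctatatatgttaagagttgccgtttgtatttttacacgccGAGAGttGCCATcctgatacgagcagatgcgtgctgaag
RpS3A, chr4:67208-67457, - strand: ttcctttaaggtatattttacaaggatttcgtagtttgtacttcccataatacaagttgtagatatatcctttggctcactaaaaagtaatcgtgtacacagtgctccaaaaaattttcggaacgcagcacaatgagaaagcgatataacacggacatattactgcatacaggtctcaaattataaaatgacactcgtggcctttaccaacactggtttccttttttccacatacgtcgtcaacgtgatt
The last pair is 300 bases of an intron of zfh2, from the longest stretch under both marks in all 16 lists, and 300 bases of an intron of bt, under H3K27me3 in all 8 lists.
zfh2 intron, chr4:515282-515581, + strand: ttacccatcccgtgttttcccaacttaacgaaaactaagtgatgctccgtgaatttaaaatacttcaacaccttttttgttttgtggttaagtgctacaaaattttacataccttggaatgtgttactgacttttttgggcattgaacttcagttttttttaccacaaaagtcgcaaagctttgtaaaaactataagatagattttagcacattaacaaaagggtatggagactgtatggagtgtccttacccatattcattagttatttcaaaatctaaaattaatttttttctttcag
bt intron, chr4:736516-736815, + strand: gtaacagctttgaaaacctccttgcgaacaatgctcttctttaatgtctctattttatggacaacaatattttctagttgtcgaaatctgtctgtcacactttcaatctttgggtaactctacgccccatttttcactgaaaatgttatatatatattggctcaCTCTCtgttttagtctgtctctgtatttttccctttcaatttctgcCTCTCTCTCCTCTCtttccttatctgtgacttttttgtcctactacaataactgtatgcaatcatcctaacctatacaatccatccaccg

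These windows differ in what they hold. The zfh2 window has 5 matches to GAGAG on either strand and 0 to GCCAT, the fd102C and sv windows have 1 and 2, and the toy window has 1 and 1. The ey window, outside every H3K27me3 peak, has 1 match to GAGAG and 2 to GCCAT. The RpS3A window has 0 of either, but with the 50 bases downstream of its start RpS3A has 1 match to GCCAT. Windows of other genes with H3K27me3 at the start in no list do hold matches, such as 5 to GAGAG for mGluR and 2 to each for Syt7. Over promoters from 250 bases upstream to 50 bases downstream of the start, GAGAG was found in 4 of the 7 chromosome 4 genes whose start was under H3K27me3 in all 8 lists and in 15 of the 71 with H3K27me3 at the start in no list (57.1% and 21.1%), against 29.7% of all 13945 promoters. GCCAT was found in 3 of the 7 and 21 of the 71, against 41.2% of all promoters. TATCGATA, the palindromic site of DREF at many housekeeping promoters, was in 0 of the 7 and 7 of the 71, against 9.36% of all promoters. On the arms, GAGAG was in 34.7% of promoters with the start under H3K27me3 in all 8 lists and in 28.9% of those in no list. In the same order GCCAT was in 45.7% and 38.3% of them, and TATCGATA in 1.27% and 12.4%. All of these are matches to letters, given as a description.

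H3K27me3 lay on chromosome 4 in a few long domains that came back in every list. A list held between 13 and 27 H3K27me3 peaks on the chromosome, and taken over all lists they made up 26 separate regions. Of these, 8 contained a stretch of at least 1 kb under a peak in all 8 lists, and between 92.2% and 99.6% of each list's H3K27me3 length on the chromosome was within them. In order along the chromosome these domains covered dati, the gene-free stretch next to it, the start of Asator with zfh2, ey with bt, Sox102F with the 3′ end of fd102C, the start of fd102C with the region upstream of it, fuss with toy, and sv. They spanned 308.0 kb, of which 223.3 kb, the core of the mark, was under a peak in all 8 lists. The other 18 regions were between 0.529 and 5.32 kb long, and 11 of them came from a single list.

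The genes that were mostly covered encode transcription factors and their partners. ey and toy are the fly Pax6 genes of eye development, sv is the fly Pax2, Sox102F belongs to the SoxD group, fd102C is a forkhead gene, zfh2 encodes a zinc finger homeodomain protein, dati encodes a zinc finger protein and fuss a protein of the Ski and Sno family. These 8 genes were each at least 50% under H3K27me3 in all 8 lists, while Asator and bt, the other genes with H3K27me3 in all 8 lists, differed from them: Asator, a kinase gene, was covered over at most 9.76% of its length, and bt over 11.6% to 88.6%. The body of ey was under a peak over 97.5% to 98.9% of its length, that of dati over 91.2% to 98.7%, Sox102F over 91.9% to 98.5%, toy over 91.3% to 95.7%, fuss from 79.5% up to its full length, sv over 85.5% to 92.4%, zfh2 over 72.7% to 87.9% and fd102C over 73.5% to 76.5%. Neither age nor genotype set the highest or the lowest values of these genes apart, except for ey by age, where the values of both ages lay close together. They were 10.0% of the 80 genes, and on the arms 13.1% of genes were covered to this extent in all 8 lists.

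Between the domains the chromosome was nearly free of H3K27me3. Of the 80 genes, 62 (77.5%) had no H3K27me3 peak in any list, against 54.2% on the arms. Among these were ci, the effector of Hedgehog signalling at the start of the chromosome, lgs, a cofactor of Wingless signalling, and Mitf, a regulator of lysosomal genes. Of 14 listed developmental transcription factors and cofactors, 8 were at least 50% covered in all 8 lists and 4 had no peak in any list. The other pair reached 20.5% of the body at most, in onecut, a homeobox gene, and 4.16% in pan, the TCF of Wingless signalling. Of 15 listed neuronal and synaptic genes, 12 had no peak in any list, unc-13, Cadps and PMCA among them. Of 13 housekeeping genes, 13 had none, and of 8 listed secreted and other genes 6 had none. The median over each of the last 3 lists was 0% covered, as it was over all 13945 genes, and over the developmental list it was 77.6%. The lists were drawn up with results of these data known. As a check of the mark off the chromosome, the bodies of 8 Hox genes were 99.0% under H3K27me3 on average, between 98.8% and 99.2% by library.

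**Figure D1:**
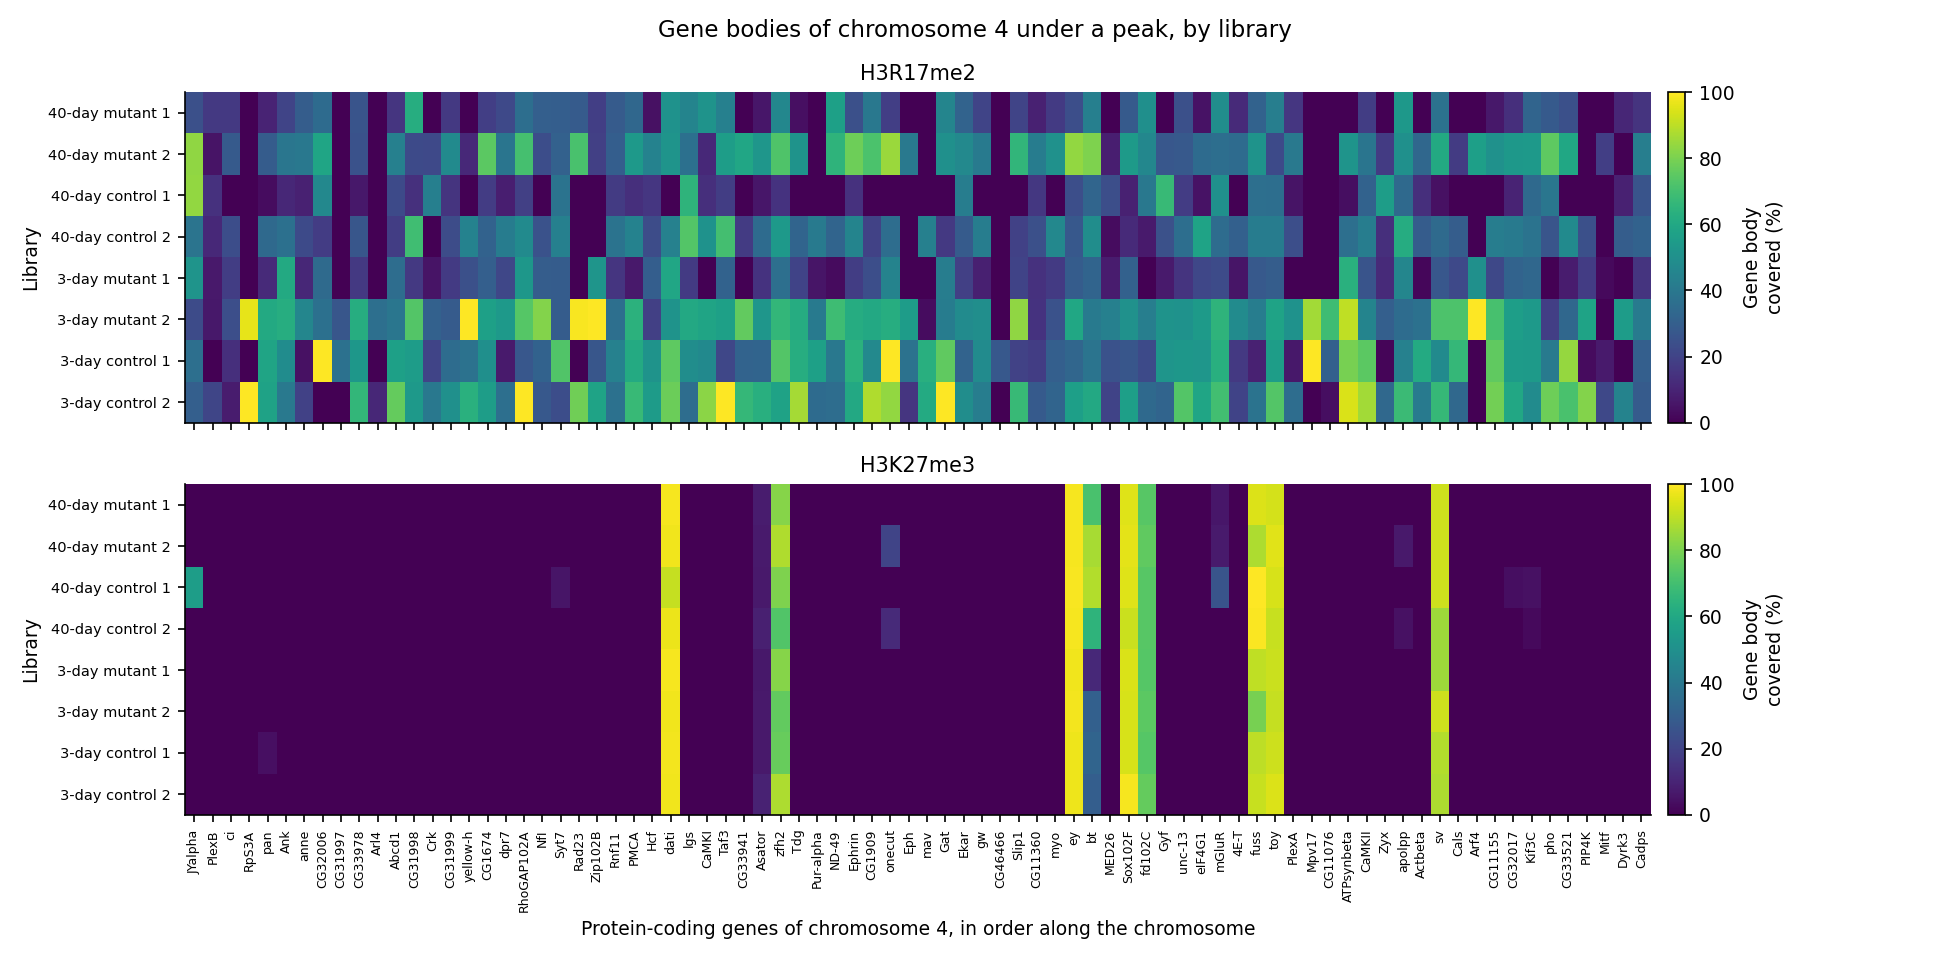
Percentage of each gene body under a peak (colour, 0 to 100%) for the 80 protein-coding genes of chromosome 4 in their order along it, with 1 row per library, H3R17me2 above and H3K27me3 below. H3K27me3 stands in the same 8 genes in every row, while bt, next to ey, is between 64.9% and 88.6% covered in the 40-day rows and between 11.6% and 32.3% in the 3-day rows.

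H3K27me3 covered less of chromosome 4 than of the arms in every library. The covered share of chromosome 4 was 21.8% and 22.3% in 40-day mutants, 23.6% and 21.5% in 40-day controls, 18.5% and 19.2% in 3-day mutants, and 19.2% and 19.5% in 3-day controls. On the arms of the same libraries it was 38.5% and 37.7%, 39.5% and 36.1%, 25.5% and 30.5%, and 29.9% and 26.7%, in the same order of groups. The mean was 20.7% ± 1.85 on chromosome 4 and 33.1% ± 5.57 on the arms (SD, n = 8), a difference of -12.36 percentage points (exact sign-flip test, two-sided, p = 0.00781, the smallest that 8 libraries allow, adjusted p = 0.0156 over 14 comparisons of chromosome 4 with the arms). Gene bodies followed, at 9.99% ± 0.797 covered on average on chromosome 4 and 24.1% ± 4.83 on the arms (p = 0.00781 in the same exact test, adjusted p = 0.0156).

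**Figure D2:**
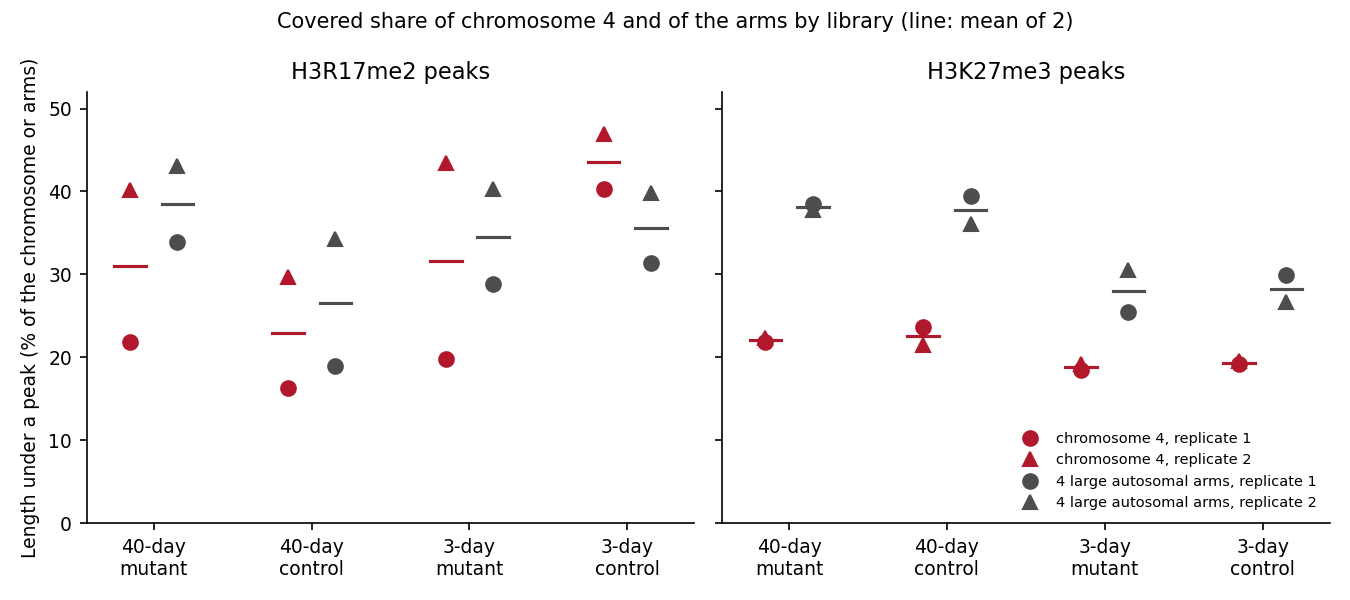
Length under a peak as a percentage of chromosome 4 (red) and of the 4 large autosomal arms (grey), for H3R17me2 on the left and H3K27me3 on the right, with a point per library and a line at the mean of the 2 libraries of a group. For H3K27me3 chromosome 4 lies below the arms in all 8 libraries, and for H3R17me2 in 5 of 8.

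On average over the libraries, the difference lay in the weak peaks. The lists hold regions with p-values of up to 0.0997, above the stated call limit of 0.01. Of the H3K27me3 length on chromosome 4 a mean of 92.4% ± 4.66 was in peaks with a q-value under 0.05, against 57.7% ± 18.4 on the arms (SD, n = 8, exact sign-flip p = 0.00781). The peaks that missed this limit covered 1.61% ± 1.11 of chromosome 4 and 14.5% ± 7.87 of the arms. With peaks of q under 0.05 alone, 19.1% ± 1.42 of chromosome 4 and 18.6% ± 5.61 of the arms were covered, a difference of 0.51 percentage points (exact p = 0.812). Chromosome 4 then stayed below the arms in 40-day mutant replicate 2, at 21.9% and 31.2%. It also did so in 3-day control replicate 1 (17.7% and 18.0%) and replicate 2 (18.7% and 21.6%), and was above the arms in all other libraries. With peaks of -log10 p of at least 3 alone, chromosome 4 was covered more than the arms, at 18.7% ± 1.37 and 13.3% ± 4.59 (exact p = 0.0156). Thus the sign of the difference turned with the strength of peak that was counted.

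**Figure D3:**
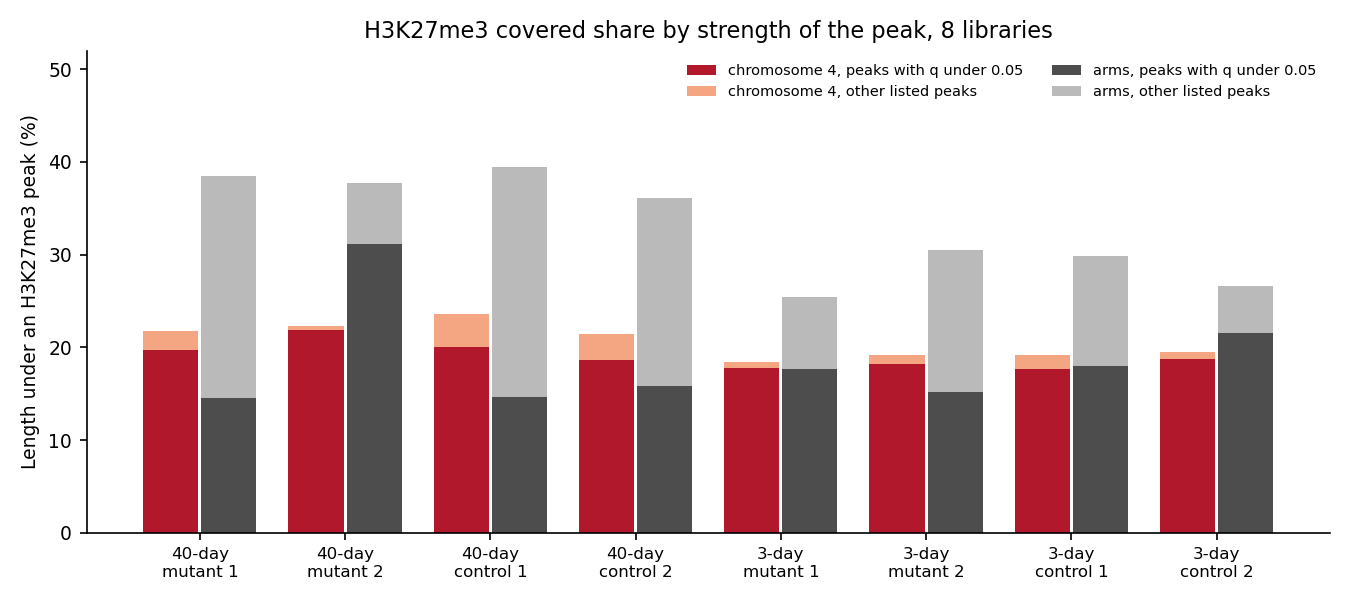
H3K27me3 covered share (percent of length) of chromosome 4 (red) and of the arms (grey) in each of the 8 libraries, split into peaks with q under 0.05 (dark) and all other listed peaks (light). The light part adds between 0.444 and 3.55 percentage points on chromosome 4 and between 5.09 and 24.9 on the arms.

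H3K27me3 peaks of chromosome 4 were fewer, longer and stronger than those of the arms. There were 1.46 ± 0.374 peaks per 100 kb on chromosome 4 and 4.52 ± 0.853 on the arms (SD, n = 8). The median peak length of a list was 7709.8 ± 4930.1 bases on chromosome 4 and 2683.5 ± 411.5 bases on the arms. The median fold enrichment over input was 1.88 ± 0.38 on chromosome 4 and 1.41 ± 0.026 on the arms, and the median -log10 p was 5.92 ± 4.43 and 1.75 ± 0.112. Each of these 4 differences had the same sign in 8 of 8 libraries (exact sign-flip p = 0.00781, adjusted p = 0.0156). Within chromosome 4, 19.3% ± 1.86 of the length inside protein-coding genes and 25.1% ± 2.30 of the length between them was under H3K27me3, lower inside genes in 8 of 8 libraries (exact p = 0.00781).

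H3R17me2 on chromosome 4 consisted of many short, weak peaks whose places differed from list to list. A list held between 111 and 222 of them. The median fold enrichment was 1.38 ± 0.079 and the median -log10 p 1.41 ± 0.048 (SD, n = 8), on the arms 1.39 ± 0.069 and 1.42 ± 0.039, and peaks with q under 0.05 made up 0.893% ± 1.58 of the H3R17me2 length of chromosome 4. At least 1 H3R17me2 list covered 80.5% of the positions of chromosome 4 and all 8 lists covered 0.201%, whereas at least 1 H3K27me3 list covered 25.5% and all 8 covered 16.6%. The product of the 8 covered shares, the part that 8 lists laid down independently of each other would all cover, was 0.00688% for H3R17me2. The Jaccard index of 2 lists, their shared length over their joint length, was 0.253 on average between replicates of one group and 0.257 between groups for H3R17me2, with 4 and 24 pairs of lists, and 0.885 and 0.833 for H3K27me3. On the arms the H3R17me2 indices were 0.280 and 0.283.

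**Figure D4:**
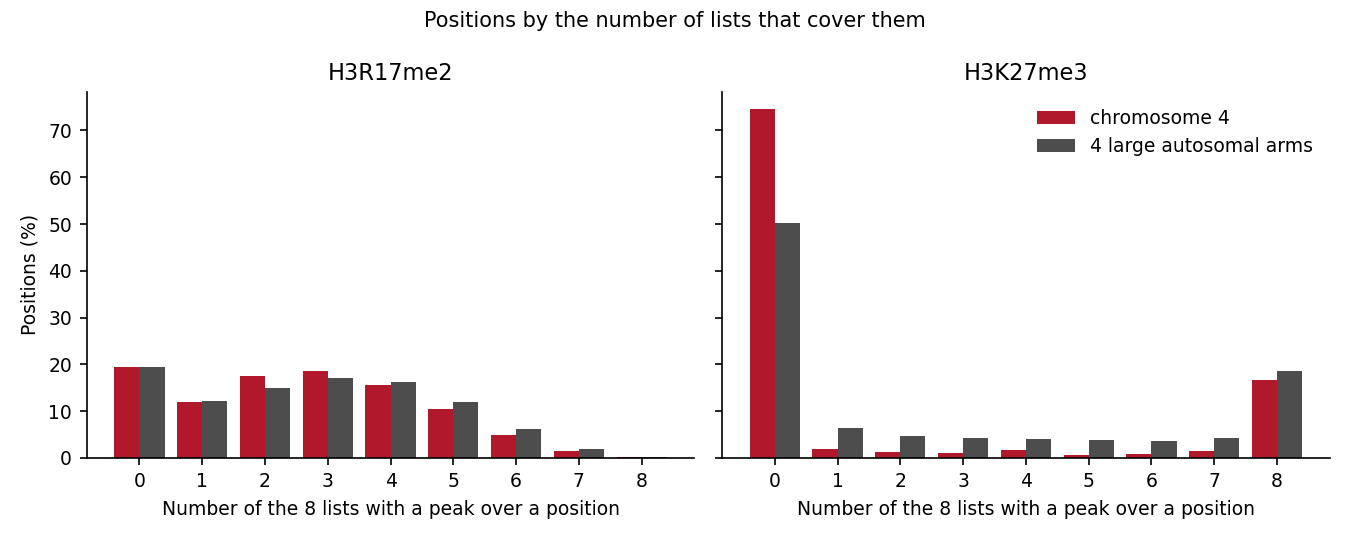
Percentage of positions (y) covered by a given number of the 8 lists of a mark (x) on chromosome 4 (red) and on the arms (grey). H3K27me3 positions of chromosome 4 fall at 0 lists (74.5%) and 8 lists (16.6%), while H3R17me2 positions spread over the numbers in between on both, with 18.6% of chromosome 4 in 3 lists.

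The H3R17me2 covered share of chromosome 4 did not differ detectably from that of the arms. It was 21.9% and 40.1% in 40-day mutants, 16.3% and 29.7% in 40-day controls, 19.8% and 43.4% in 3-day mutants, and 40.3% and 46.9% in 3-day controls. Replicate 2 was higher than replicate 1 in 4 of 4 groups, by 15.5 percentage points on average. The mean was 32.3% ± 11.9 on chromosome 4 and 33.8% ± 7.71 on the arms (SD, n = 8), and chromosome 4 was higher in 3 of 8 libraries (exact sign-flip p = 0.578, adjusted p = 0.656). Of the X chromosome, between 0% and 0.674% was under H3R17me2 in these male heads. Shares and medians over all protein-coding genes given below include the genes of the X. Within chromosome 4, 35.9% ± 13.8 of the length inside protein-coding genes was under H3R17me2 and 21.3% ± 6.41 of the length between them, higher inside genes in 8 of 8 libraries (exact p = 0.00781).

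In the lists as deposited H3R17me2 covered more of chromosome 4 than H3K27me3 did, by 11.60 percentage points (32.3% ± 11.9 and 20.7% ± 1.85, SD, n = 8 each, exact permutation p = 0.0211, adjusted p = 0.0211 over 2 tests). With peaks of q under 0.05 alone the order was the other way, by -18.93 percentage points (exact p = 0.000155, the smallest that 8 against 8 allow), since few H3R17me2 peaks passed that limit. With equal numbers of the strongest peaks per list the difference was 4.92 percentage points and missed the threshold (exact p = 0.229). By gene, every H3R17me2 library was above every H3K27me3 library in 25 of the 80 genes of chromosome 4 (31.2%), against 5.76% of all protein-coding genes. Genes of chromosome 4 are longer, with a median of 10.1 kb against 2.09 kb on the arms, and the part of gene length in this count was not tested. The reverse order held in 7 genes (8.75%), dati, ey, Sox102F, fd102C, fuss, toy and sv, against 3.38% of all genes.

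H3R17me2 peaks of the deposited lists were spread widely over single genes. None of the peaks over genes had q under 0.05, as all 9 such peaks lay beyond the last protein-coding gene. All 80 genes had H3R17me2 in at least 1 list, 36 had it in all 8, and 0 were at least 50% covered in all 8. The highest means were in onecut (53.7% ± 35.1 of the body), RhoGAP102A (53.4% ± 26.9), zfh2 (52.6% ± 20.0), ATPsynbeta, the beta subunit of the mitochondrial ATP synthase (52.4% ± 36.7), and dati (51.3% ± 24.0, SD, n = 8). The lowest were in CG46466 (3.44% ± 9.72), Arl4 (5.96%, with 6 of 8 libraries at 0%), Mitf (6.29% ± 8.89), CG31997 (7.99% ± 15.1) and PlexB, a receptor for semaphorins (10.3% ± 6.80). The median of a gene's mean was 38.6% over the developmental list and 37.3% over the neuronal list. It was 31.6% over the housekeeping list and 34.8% over the secreted list. Over all 13945 genes, those of the X included, it was 30.5%, and these medians were not tested against each other. Mean gene-body cover was 33.4% ± 14.3 on chromosome 4 and 35.1% ± 9.72 on the arms (SD, n = 8, exact sign-flip p = 0.609, adjusted p = 0.656). RpS3A varied widely between libraries. It was 96.3% covered in 3-day mutant replicate 2 and covered from end to end in 3-day control replicate 2. In the other 6 libraries it was at 0%.

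In the lists as deposited, H3R17me2 peaks lay inside the H3K27me3 domains as well as outside them. Those inside were all weak, since all 9 H3R17me2 peaks with q under 0.05 lay beyond the last protein-coding gene. Of the core of H3K27me3 on chromosome 4, 43.8% ± 15.1 was under H3R17me2, against 28.7% ± 12.3 of the positions that no H3K27me3 list covered, and the first was higher in 8 of 8 libraries (SD, n = 8, exact sign-flip p = 0.00781). The core was chosen after the lists had been seen. On the arms the shares were 48.4% ± 12.6 and 22.5% ± 5.94. By domain the mean H3R17me2 cover was between 30.4% over the region upstream of fd102C and 52.8% over dati. Stretches under H3R17me2 in all 8 lists came to 2.71 kb on chromosome 4, and the longest, 1802 bases at chr4:514707-516508 in zfh2, was also under H3K27me3 in all 8 lists. It is the stretch from which the zfh2 intron window above was taken.

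The overlap of the marks in libraries of the same group and replicate number was smaller on chromosome 4 than on the arms. The Jaccard index of the marks was 0.209 ± 0.041 on chromosome 4 and 0.308 ± 0.067 on the arms, lower on chromosome 4 in 8 of 8 pairs (SD, n = 8, exact sign-flip p = 0.00781, adjusted p = 0.0156 over 2 tests). Set against the product of the covered shares of the marks, the shared length was 1.44 ± 0.241 times that product on chromosome 4 and 1.43 ± 0.080 times on the arms (exact p = 0.938). With peaks of q under 0.05 alone the difference in the Jaccard index was 0.00337. A list then held between 0 and 4 H3R17me2 peaks on chromosome 4, with a median of 0, so this setting cannot compare the overlap.

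With age the H3K27me3 covered share of chromosome 4 was higher in every 40-day library than in every 3-day library, at 22.3% ± 0.948 and 19.1% ± 0.448 (SD, n = 4 each), a difference of 3.22 percentage points (exact permutation p = 0.0286, the smallest that 4 against 4 allow, and adjusted p = 0.114 over 8 age and genotype tests). The difference was 3.21 percentage points in mutants and 3.23 in controls. It was smaller than on the arms, so that chromosome 4 minus arms was -15.66 ± 0.872 percentage points at 40 days and -9.05 ± 2.28 at 3 days (exact p = 0.0286, adjusted p = 0.114). With peaks of q under 0.05 alone the difference on chromosome 4 was 2.02 percentage points (exact p = 0.0571), and that of chromosome 4 minus arms was 1.03 (exact p = 0.886).

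Most of this length came from 1 domain, that of ey and bt. bt encodes projectin, a giant protein of muscle. Within the domain, which ran from 697943 to 772771, H3K27me3 covered 63.5 and 71.7 kb in 40-day mutants, 72.6 and 58.4 kb in 40-day controls, 29.2 and 39.1 kb in 3-day mutants, and 40.1 and 39.8 kb in 3-day controls. The ages did not overlap, and the means were 66.5 ± 6.79 kb at 40 days and 37.1 ± 5.22 kb at 3 days (SD, n = 4 each). The difference of 29.5 kb was 67.9% of the 43.4 kb by which the whole chromosome differed. In the other 7 domains the libraries of both ages overlapped, with differences between -0.24 and 2.22 kb. Without the ey and bt domain the covered length of the chromosome was 234.2 ± 7.95 kb at 40 days and 220.3 ± 2.04 kb at 3 days, still without overlap of the ages (exact p = 0.0286). With peaks of q under 0.05 alone, the domain held 43.4 and 70.9 kb in 40-day mutants, 41.3 and 26.7 kb in 40-day controls, 23.0 and 24.8 kb in 3-day mutants, and 22.9 and 30.1 kb in 3-day controls, and 1 library of each age then crossed the other age (exact p = 0.0571).

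The ey gene itself was filled at both ages, and the difference was in bt. A peak with q under 0.05 over ey was present in every library. Counted from the start of bt, it ended at 1.92 and 44.5 kb in 40-day mutants, at 14.9 and -3.19 kb in 40-day controls, at -3.32 and -3.24 kb in 3-day mutants and at -3.28 and -1.90 kb in 3-day controls. It thus ran into bt in 3 of 4 libraries at 40 days and stopped short of bt in the other one and in all 4 libraries at 3 days. The body of bt was 71.3% and 86.9% covered in 40-day mutants, 88.6% and 64.9% in 40-day controls, 11.6% and 30.6% in 3-day mutants, and 32.3% and 29.9% in 3-day controls. The mean difference was 51.85 percentage points, larger than in any other gene of chromosome 4, and 551 of all 13945 genes had a larger one. The intron window of bt printed above was under H3K27me3 at both ages. The peak over it missed q under 0.05 in every 3-day library and in 40-day control replicate 2. Much of the added cover was weak: with peaks of q under 0.05 alone, bt was 32.7% and 85.5% covered in 40-day mutants, 28.6% and 6.65% in 40-day controls, 0% and 3.39% in 3-day mutants, and 0% and 11.2% in 3-day controls, and the ages then overlapped (exact p = 0.0571). The fold enrichment of the ey peak was between 1.78 and 2.10 in 40-day libraries and between 2.46 and 3.46 in 3-day libraries. It is a mean over the whole peak, which was 23.2 to 70.9 kb long at 40 days and 22.9 to 24.2 kb at 3 days. The values are thus not for the same interval. In 40-day control replicate 2, where the peak was 23.2 kb long, it was 2.10.

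**Figure D5:**
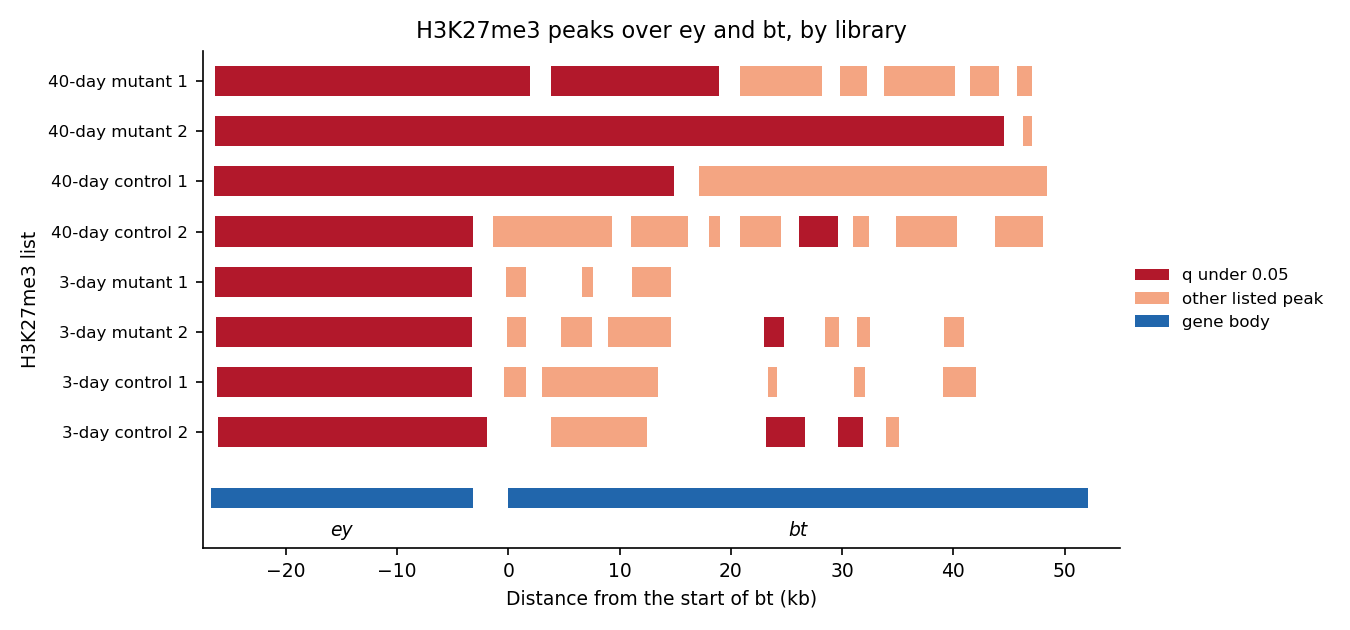
H3K27me3 peaks over ey and bt in the 8 libraries, drawn by their distance from the start of bt (kb), with peaks of q under 0.05 in dark red, other listed peaks in light red and the gene bodies in blue. The peak over ey is present in all rows, and peaks cover between 64.9% and 88.6% of bt in the 40-day rows and between 11.6% and 32.3% in the 3-day rows.

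By gene, 2 of the 80 genes of chromosome 4 had more H3K27me3 in every 40-day library than in every 3-day library, namely bt and ey. That is 2.50%, against 5.46% of all protein-coding genes. For ey the difference was between 98.6% and 98.9% at 40 days and between 97.5% and 98.3% at 3 days. In 0 of 80 genes was H3K27me3 lower at 40 days without overlap, against 0.129% of all genes, and each of these counts is also the count at an unadjusted exact p of 0.0286.

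For H3R17me2 no difference between ages passed the test on chromosome 4, and after adjustment those of H3K27me3 did not pass either. The covered share was 26.98% ± 10.4 at 40 days and 37.6% ± 12.2 at 3 days (SD, n = 4 each, difference -10.63 percentage points, exact permutation p = 0.229, adjusted p = 0.366). In controls both 40-day libraries were below both 3-day libraries, by 20.6 percentage points on average, while in mutants the difference was -0.64 percentage points and the ages overlapped. With 2 libraries against 2, no exact p can be under 0.333. The mean cover of the gene body was lower at 40 days in 65 of the 80 genes, with a median difference of -15.17 percentage points. Over all genes 47.2% were lower and 36.3% higher, with a median of 0, and the rest were tied. No gene of chromosome 4 was tied. Its genes are longer, and all genes include those of the X, which had little H3R17me2. The part of both in this comparison was not tested. Without 3-day mutant replicate 1, the lowest of the 3-day libraries, the difference of the covered share was -16.56 percentage points, and without 40-day control replicate 1, the lowest of the 40-day libraries, it was -7.06.

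Single genes showed the same spread. H3R17me2 was lower in every 40-day library than in every 3-day library in 3 of 80 genes (3.75%), against 1.13% of all protein-coding genes, and higher in 0, against 0.459% of all. The 3 genes were ATPsynbeta, Zip102B, a zinc transporter gene, and Ank, which encodes an ankyrin. ATPsynbeta was 0% and 51.8% covered in 40-day mutants, 3.55% and 36.5% in 40-day controls, 63.7% and 90.4% in 3-day mutants, and 79.5% and 94.1% in 3-day controls, a difference of -58.96 percentage points. Its nearest values at the 2 ages were thus 51.8% and 63.7%. For Zip102B the difference was -49.89 percentage points and for Ank -25.96. The number of such genes was 17 without 3-day mutant replicate 1, 8 without 40-day mutant replicate 2 and 7 without 40-day control replicate 2, so it rested on single libraries.

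Between genotypes no difference passed the test for either mark on chromosome 4. The H3K27me3 covered share was 20.4% ± 1.89 in mutants and 20.9% ± 2.06 in controls (SD, n = 4 each, exact permutation p = 0.743, adjusted p = 0.800). The H3R17me2 covered share was 31.3% ± 12.2 in mutants and 33.3% ± 13.4 in controls (exact p = 0.800, adjusted p = 0.800). For chromosome 4 minus arms the difference between genotypes was -0.52 percentage points for H3K27me3 (exact p = 0.771) and -7.37 for H3R17me2 (exact p = 0.171). In 0 of the 80 genes were the mutant libraries all above or all below the control libraries, which is also the count at an unadjusted exact p of 0.0286. The shares over all protein-coding genes were 0.1% above and 0.0717% below for H3K27me3, and 1.32% above and 0.237% below for H3R17me2. Of the 8 H3K27me3 domains, 8 had overlapping libraries of the genotypes.

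At the distal end, 76.4 kb of chromosome 4 lie beyond Cadps, its last protein-coding gene. Over all lists together, the highest fold enrichment of each mark was there. List by list, this held for H3K27me3 only in the 40-day controls. For H3R17me2 it held only in replicate 1 of both 40-day groups and of 3-day mutants. All 9 H3R17me2 peaks of chromosome 4 with q under 0.05 were in this stretch, 4 of them in 40-day control replicate 1, 3 in 40-day mutant replicate 1 and 2 in 3-day mutant replicate 1. The highest H3R17me2 fold enrichment was 5.76, in 40-day control replicate 1, and the highest of H3K27me3 was 3.66, in 40-day control replicate 2. Of 97 such H3K27me3 peaks 6 were in this stretch, 3 in 40-day control replicate 1, 2 in 40-day control replicate 2 and 1 in 3-day control replicate 1. H3K27me3 covered 0.935 and 0 kb of it in 40-day mutants, 8.15 and 7.78 kb in 40-day controls, 0 kb in both 3-day mutants, and 2.82 and 0 kb in 3-day controls. In 40-day control replicate 1 the strongest peak of each mark lay at nearly the same place. It ran from 1316047 to 1319824 for H3K27me3 and from 1316002 to 1319825 for H3R17me2.

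In base composition the H3K27me3 core stood between the rest of the chromosome and the arms. Its GC content was 37.1%, beside 34.5% in positions under H3K27me3 in no list, 35.2% over chromosome 4 and 42.2% over the arms. The share of bases that the RefSeq sequence marks as repeats was 24.1% in the core and 28.9% in positions under H3K27me3 in no list, against 27.8% of chromosome 4 and 19.8% of the arms. The arms showed the same directions. There, GC was 43.8% in positions under H3K27me3 in all 8 lists and 41.5% in those in no list, and repeats were 14.3% and 24.6%. Positions under H3R17me2 in no list were 34.7% repeats, against 20.8% of those in at least 5 lists. How far repeats, to which short reads are hard to assign, bear on the covered shares was not tested.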

How the data were processed

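Heads were profiled by ChIP-seq for 2 marks, with 8 libraries per mark and 8 inputs. Per the study's methods, the authors trimmed reads with Trim Galore 0.6.0, aligned them to dm6 with Bowtie2 2.5.1, removed duplicates with Picard, handled the files with SAMtools 1.19 and called broad peaks against input with MACS2 2.2.7.1 (p of 0.01, minimum length 500 bases). The lists hold p-values up to 0.0997, and it was assumed, as no source states it, that broad regions were linked at the looser default limit of MACS2. Which input served which list is not given in the sources used here. The deposited fold enrichment is a ratio of immunoprecipitated to input signal, averaged over the peak by the authors. The deposited -log10 p and -log10 q values are those of MACS2. The study states 1 nominal sequencing yield, but the lists hold no counts and no depth per library, so no interval was computed. In 4 H3K27me3 lists of 3-day flies the peak names order mark, age and replicate differently from the labels, and each still matches 1 sample.

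The members, gene lists and tests were chosen with earlier results of these data known. Peaks of a list were merged, and covered shares were taken over dm6 chromosome lengths (RefSeq) and gene bodies (Ensembl release 115), using pandas 2.3.3 and NumPy 2.4.6 under Python 3.11.15. Exact sign-flip tests compared chromosome 4 with arms within libraries, and exact permutation tests compared 8 against 8 or 4 against 4 libraries, all two-sided with Benjamini-Hochberg adjustment within each family. A gene was called where the libraries of the groups did not overlap. Named genes were the 5 highest and 5 lowest means per mark, up to 3 largest called differences per contrast and direction, and the list members. Of 50 listed genes of chromosome 4, 49 matched by symbol and 1 by an older name. The functions were tested on simulated lists. Alternatives were other peak limits, minimum lengths, gaps, arms with X, leaving out each library, pairing by replicate number and permutation within the other factor.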

Additional observations from a re-analysis of the deposited data

Results flagged for a closer look

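Among 76 groups of libraries examined for a value far from the others, 7 stood out, and chance gives about 5% of groups. The highest H3R17me2 fold enrichment on chromosome 4 was 5.76 in 40-day control replicate 1, against 2.74 at most in the other 7 libraries, 2.09 in the other 40-day libraries and 1.82 in the other control libraries, so it stood out in each of those 3 sets. The median H3R17me2 fold enrichment was 1.55 in 3-day control replicate 2, against at most 1.38 in the other 3-day libraries. The median H3K27me3 fold enrichment was 2.04 in 40-day mutant replicate 2, against at most 1.55 in the other 40-day libraries. The H3K27me3 length in the domain of ey and bt was 29.2 kb in 3-day mutant replicate 1, against at least 39.1 kb in the other 3-day libraries. The H3K27me3 length in the sv domain was 24.3 kb in 40-day control replicate 2, against at least 25.96 kb in the other 40-day libraries.

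For the H3R17me2 covered share of chromosome 4, the mean of mutant minus control had opposite signs at the 2 ages, although the libraries of the genotypes overlapped at each age (exact permutation p = 0.667 at each). It was 8.04 percentage points at 40 days and -11.95 at 3 days, with that sign in both replicate numbers at each age. The difference between the ages was not tested, and on the arms mutant minus control was 11.91 and -1.07 percentage points.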

How the results depend on the processing

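Of 339 values recomputed under an alternative, 292 were counted as the same. For a tested value this meant the same sign and the same side of an unadjusted p of 0.05. A value without a test, as in leaving out a library, counted as the same if it moved by less than the SD. It could thus cross 0 where the main value had missed the threshold. Counts of genes were the same within a set ratio. With peaks of q under 0.05, these values had the other sign: chromosome 4 minus arms, 0.15 percentage points for H3R17me2 and 0.51 for H3K27me3; 40-day minus 3-day, 0.22 for H3R17me2 on chromosome 4, 0.20 for H3R17me2 and 1.03 for H3K27me3 in chromosome 4 minus arms; mutant minus control of H3K27me3, 0.61; H3R17me2 minus H3K27me3, -18.93 on chromosome 4 and -0.36 in chromosome 4 minus arms; and the Jaccard difference, 0.0034. With -log10 p of at least 3 they were 0.15, 5.41, 0.25, 0.23, 2.55, 0.79, -18.50, -5.25 and 0.0032 in the same order. Both limits left few H3R17me2 peaks, so the Jaccard differences under them cannot decide on the overlap. With q under 0.05 the age difference of H3K27me3 was 2.02 (exact p = 0.0571), gene-body cover of H3R17me2 was -0.0020 percentage points from the arms and past the threshold, and the share of genes at least 50% under H3K27me3 was -2.44 from the arms (exact p = 0.0547). H3R17me2 minus H3K27me3 missed the threshold with equal numbers of peaks (4.92) and with peaks of at least 1 kb (9.29). With X among the arms, H3R17me2 on chromosome 4 minus arms was 4.43 percentage points. The share of genes past a limit of 25% was 5.73 from the arms for H3R17me2, and past 75% it was -10.95 and past the threshold. With q under 0.05, 0 genes were lower in H3R17me2 and 1 gene was higher in H3K27me3 at 40 days.

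The labels do not say that a replicate number marks a shared batch, and not every pair of groups had a correlation over 0.1, so the numbers were not taken as pairs: deviations of same-numbered libraries correlated between -0.216 and 0.084 for H3K27me3 and between 0.017 and 0.148 for H3R17me2. All 6 correlations of H3R17me2 were above 0, and its replicate 2 covered more than replicate 1 in 4 of 4 groups on chromosome 4 (6.65 to 23.6 percentage points) and on the arms (8.44 to 15.3). With the replicate block, H3R17me2 minus H3K27me3 was again 11.60 (exact p = 0.0391), no difference changed its sign, and 4 pairs allow no p under 0.125. Counting genes with the same sign in all pairs of the block gave 1 gene higher and 17 lower in H3R17me2 at 40 days, and 5 higher and 2 lower in mutants. Leaving out each library in turn, an alternative chosen after seeing the data for these counts, gave 0 to 1 genes higher and 3 to 17 lower in H3R17me2 at 40 days, and 0 to 3 higher and 0 to 2 lower in mutants. Over the same omissions, 3 differences that had missed the threshold crossed 0: H3R17me2 on chromosome 4 minus arms (-2.99 to 0.0028 percentage points), and mutant minus control on chromosome 4 for H3R17me2 (-7.62 to 2.59) and for H3K27me3 (-1.12 to 0.39). So did mutant minus control of H3K27me3 in chromosome 4 minus arms (-2.39 to 1.12). The age difference in the domain of ey and bt, recomputed after seeing the data, was 20.4 kb with q under 0.05 and 17.6 kb with -log10 p of at least 3 (exact p = 0.0571 in both). The 36 arrangements within the other factor allow no p under 0.0556. The lists hold no reads, so the depth behind a peak limits these values to an unknown extent.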
